A study of Mus musculus with 2 samples.

Results

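The genes described here are Neurog2, Atoh7, Olig2, Neurod1, Neurod4, Hes6 and Insm1, 7 transcription factors of the path from retinal progenitor cells (RPCs) to neurons. They were taken by symbol from the gene lists of both libraries, and all 7 were present among 30905 genes. In the control library (Ctrl), cells of 2 control retinas were mixed. The other library, Mettl3-CKO, was made from 2 retinas of the genotype Six3-Cre+; Mettl3 floxed/floxed. All were littermates at postnatal day 7. The genotype of the control retinas beyond that name was not given in the sources used here. Six3-Cre acts in RPCs from an early embryonic stage. Mettl3 is the core enzyme of the complex that writes the m6A mark on mRNA. From immunofluorescence staining the study reports that its loss was efficient in the central retina, so that cells of other regions may have kept the gene. Single-cell RNA-seq counted transcripts of each cell by unique molecular identifiers (UMIs), reading the 3′ end of each transcript. With 1 library a group there was no replicate and no test. All intervals are 95% intervals. Those of levels and of ratios of levels are exact and cover counting error only, not the spread between cells. Those of shares and of median positions are taken over cells, and those of ratios of shares use an approximate log method. No interval covers the spread between animals.

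Basic helix-loop-helix (bHLH) proneural factors bind the E-box, a short DNA motif, and drive progenitors to leave the cell cycle and become neurons, while Notch signaling between neighboring cells holds them back through Hes repressors. Neurog2 and Atoh7 are proneural factors of the neurogenin and atonal groups. Atoh7 is required for retinal ganglion cells, which are born in the embryo, whereas at the first postnatal week progenitors produce mostly rods, bipolar cells and Müller glia. Olig2 is a bHLH factor of progenitors in their last divisions, Neurod1 and Neurod4 are bHLH factors of precursors and of photoreceptors, bipolar and amacrine cells, Hes6 is a bHLH protein that counters Hes1, and Insm1 is a zinc finger repressor and not a bHLH factor. The name proneural thus fits the members to different degrees.

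The promoters of Neurog2, Atoh7 and Olig2, which carry the results on the early path, are shown with that of Hes6 as a member with several E-boxes. In the GENCODE annotation of GRCm38, Neurog2 is a gene of 2 exons on the plus strand (chr3:127633135-127635631), Atoh7 lies on the plus strand (chr10:63099651-63101279), Olig2 on the plus strand (chr16:91225457-91228677) and Hes6 on the minus strand (chr1:91411483-91414038). The sequences are from RefSeq (GRCm38.p6), run 5′ to 3′ on the strand of the gene and end before the annotated start of the gene, and capitals mark the E-box, CANNTG, which reads alike on both strands.
Neurog2 (chr3:127632886-127633134, plus strand): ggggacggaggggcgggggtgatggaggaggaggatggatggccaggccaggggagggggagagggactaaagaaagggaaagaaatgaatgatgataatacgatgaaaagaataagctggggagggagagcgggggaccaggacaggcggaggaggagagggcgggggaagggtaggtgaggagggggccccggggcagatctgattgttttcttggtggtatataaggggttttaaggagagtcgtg
Atoh7 (chr10:63099535-63099650, plus strand): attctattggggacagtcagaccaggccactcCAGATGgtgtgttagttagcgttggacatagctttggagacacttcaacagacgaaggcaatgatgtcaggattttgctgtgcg
Olig2 (chr16:91225300-91225456, plus strand): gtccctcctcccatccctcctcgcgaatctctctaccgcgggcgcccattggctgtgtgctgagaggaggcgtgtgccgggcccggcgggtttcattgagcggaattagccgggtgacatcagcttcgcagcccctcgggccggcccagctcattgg
Hes6 (chr1:91414039-91414288, minus strand): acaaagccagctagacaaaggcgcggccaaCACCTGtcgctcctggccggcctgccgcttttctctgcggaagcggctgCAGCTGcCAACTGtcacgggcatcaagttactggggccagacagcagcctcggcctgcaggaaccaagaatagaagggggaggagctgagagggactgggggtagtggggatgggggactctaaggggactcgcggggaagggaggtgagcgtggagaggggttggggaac
Over windows of 250 bases before the RefSeq start, the letters CANNTG occurred 3 times in Atoh7, 3 times in Hes6, 1 time in Neurod1, and not in Neurog2, Olig2 or Neurod4. These windows run into the annotated gene for Atoh7, Olig2 and Neurod1, and at the last base for Neurog2. A second RefSeq entry of Hes6, whose window lies inside the annotated gene, held 1 E-box. A second entry of Neurod4, whose window runs into the gene, held none. Of 32851 mouse promoters of the same length, 66.2% held at least 1 E-box and 12.2% held at least 3. A match of 6 letters is a description of the sequence and not a binding site, and 6 of the 7 members had a promoter in the table used.

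The libraries as read here held 3994 complete cells for Ctrl (median 4520.5 UMIs) and 3109 for Mettl3-CKO (median 5207 UMIs), and the matrices stopped short of the entries named in their headers (8885792 of 13377095 and 7874177 of 17695523 read), so the cells of the other barcodes were not analysed here. Mettl3 itself gave 39.5 counts per 1000000 UMIs (CPM; interval 36.9 to 42.3) in Ctrl and 33.1 CPM (30.6 to 35.7) in Mettl3-CKO cells, a ratio of 0.837 (0.754 to 0.928). In neurogenic-like cells the Mettl3 ratio was 1.21 (0.880 to 1.67) and in RPC-like cells 0.833 (0.517 to 1.35). Which exons are deleted was not given in the sources used here, and UMIs from the 3′ end may come from a transcript without them, so this count may not check the label. The 2 libraries shared 5 cell barcodes. Xist, the RNA of the inactive X chromosome in females, was detected in 56.3% of Mettl3-CKO and in 0.751% of Ctrl cells, so the Mettl3-CKO library was mixed for Xist and the Ctrl library was not. Ratios are therefore also given with the Mettl3-CKO cells that carried Xist and with those that did not, each restricted to cells of at least 4000 UMIs (1400 and 770 cells) and set against the 2446 Ctrl cells of that depth. The part of Xist status in a difference was not tested beyond these values.

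Cells were grouped into 24 clusters without use of the 7 genes, and clusters were named from marker genes. RPC-like cells carried cell-cycle markers such as Top2a and Mki67 (150 Ctrl and 219 Mettl3-CKO cells), and neurogenic-like cells carried markers of newly committed precursors such as Mybl1, Dll3 and Rgs16 (244 and 277 cells). Cluster 5 stayed without a name: its leading genes were Ung, Hes5, Ccnd1 and Mcm6, of DNA replication and of the Notch response (193 and 312 cells). Sox8, Id3 and Hes1 were also among them. The marker list nearest to it was that of Müller glia, with 5 markers up and a mean log2 fold of 0.80. It was kept on the path described below, from which Müller-like cells were left out. Cluster 19, led by Cntnap5a and Mybl1, held 51 and 54 cells. Rod-like cells, which carried Nr2e3 and Pde6b, made up 34.5% of Ctrl and 27.4% of Mettl3-CKO cells. The share of RPC-like cells was 1.88 times as large in the Mettl3-CKO library as in Ctrl, that of cluster 5 2.08 times. Each cell outside the bipolar-like, cone-like, amacrine-like, Müller-like and microglia-like classes and cluster 22, and thus rod-like cells too, was also given a position from 0 to 100 by the balance of 15 neuron genes against 15 progenitor genes, none of them a member, and positions were cut into 10 bins of equal cell number over both libraries. These path cells numbered 3238 in Ctrl and 2631 in Mettl3-CKO, with a median position of 54.6 and 42.7.

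Over all cells, 1 of the 7 genes, Atoh7, was at least 1.5-fold higher in the Mettl3-CKO library, beside 4.15% of the 12088 genes with at least 100 UMIs, and none was as much lower (2.23% of genes). The median log2 ratio of the 7 was 0.08, against 0.02 over all genes. Atoh7 gave 341 UMIs in Ctrl (16.3 CPM, interval 14.6 to 18.1) and 912 in Mettl3-CKO (45.7 CPM, 42.8 to 48.8), a ratio of 2.81 (2.48 to 3.19). Neurog2 gave 53.8 and 70.3 CPM, a ratio of 1.31 (1.21 to 1.41). The other 5 lay closer to 1. Their ratios were 0.925 for Olig2 (0.798 to 1.07), 0.973 for Neurod1, 1.07 for Neurod4, 1.06 for Hes6 and 0.935 for Insm1.

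The classes differed in size, so each gene's Mettl3-CKO level was also recomputed with every class weighted as in Ctrl. At this control composition the Neurog2 ratio was 1.03, compared with 1.31 without weighting, while the Atoh7 ratio was 2.69. Olig2 was lower at control composition, with a ratio of 0.724, and the other 4 members lay between 0.948 and 1.07. With Ctrl levels in every class and only the class shares of Mettl3-CKO, the ratio was 1.35 for Neurog2 and 1.15 for Atoh7, so the shares alone gave as large a ratio as that seen for Neurog2 and a smaller one for Atoh7. Cells with a UMI of Neurog2, Atoh7 or Olig2 made up 11.8% of Ctrl and 17.8% of Mettl3-CKO cells, a ratio of 1.5 (1.34 to 1.68). After each cell was thinned to 2000 UMIs, which left 3093 Ctrl and 2585 Mettl3-CKO cells, the shares were 7.37% and 10.4% (ratio 1.42, 1.20 to 1.68). In microglia-like cells, which should lack all of these factors, 0 of 33 Ctrl and 1 of 30 Mettl3-CKO cells had such a UMI, at median depths of 1493 and 1459.5 UMIs.

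**Figure D1:**
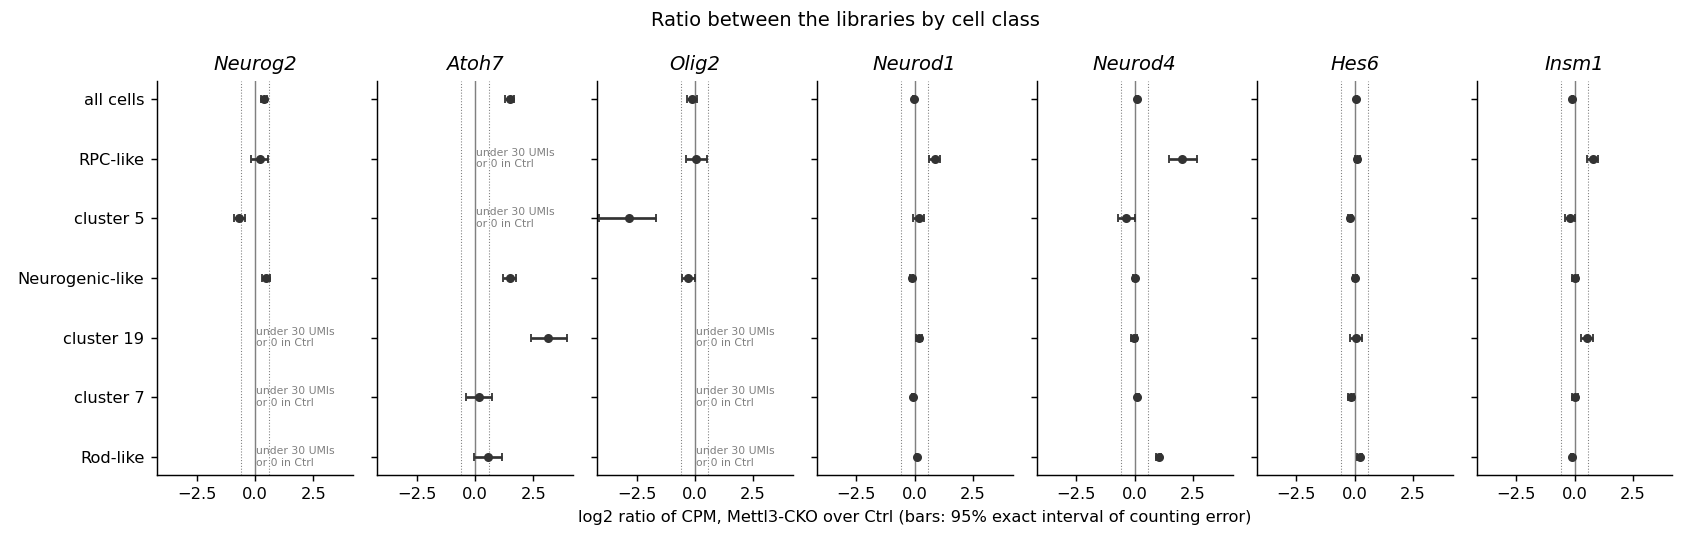
Ratio of each gene's level in Mettl3-CKO to Ctrl on a log2 axis by cell class, with 95% exact intervals for counting error. Atoh7 lies at 2.81 in all cells and at 8.87 in cluster 19, and Olig2 at 0.143 in cluster 5.

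Atoh7 was the gene with the widest differences. In neurogenic-like cells it gave 83.9 CPM in Ctrl (71.1 to 98.3) and 236 CPM in Mettl3-CKO (215 to 258), a ratio of 2.81 (2.34 to 3.40). It was the only 1 of the 7 members past 1.5-fold there, beside 2.67% of 5846 genes higher and 1.28% lower. The share of neurogenic-like cells with Atoh7 was 24.6% in Ctrl and 32.1% in Mettl3-CKO, and 11.4% and 16.7% after thinning to 2000 UMIs. More of the difference lay in the UMIs per positive cell, 2.55 in Ctrl and 5.22 in Mettl3-CKO. Cells with 5 or more Atoh7 UMIs numbered 5 in Ctrl and 31 in Mettl3-CKO, and the 5 highest cells held 39.2% and 31.8% of the Atoh7 UMIs. Against Ctrl the ratio was 3.02 with the Xist-carrying Mettl3-CKO cells and 2.65 with the others, so both sets of cells lay on the same side. When the libraries were clustered separately the class took in other cells and the ratio was 1.61.

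In cluster 19, Atoh7 gave 17 UMIs in Ctrl (38.5 CPM) and 145 in Mettl3-CKO (342 CPM), a ratio of 8.87 (5.35 to 15.6), with positive cells at 13.7% and 51.9%. Of the 5 members with at least 100 UMIs there, Atoh7 was the 1 past 1.5-fold, beside 6.06% of genes higher and 8.74% lower. The ratio was 11.6 with the Xist-carrying cells, 6.48 with the others, and 4.37 with cells that had a Y-linked UMI and no Xist. In bipolar-like cells, Atoh7 gave 2 UMIs in 165 Ctrl cells and 40 UMIs in 84 Mettl3-CKO cells, where 21 of the 84 cells were positive. The ratio was 39.6 (10.3 to 338), and 71.0 without cells of a high doublet score, with bipolar-like cells of similar median depth in both libraries, 7684 and 7775 UMIs. Both sets of Mettl3-CKO cells held these UMIs, 25 in the cells with Xist and 15 in those without.

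Among RPC-like cells no Atoh7 UMI was found in 150 Ctrl cells, which allows a share of up to 2% of cells with a UMI at 3 counts of the total (2.43% by the exact interval), and 41 were found in Mettl3-CKO, in 14 of 219 cells. Set against a floor of 3 UMIs over the class in Ctrl, the Mettl3-CKO level was at least 9.21-fold higher, and the exact 95% interval of the ratio began at 7.16. Without cells of a high doublet score it was 31 UMIs and 7.44-fold against that floor, with an interval from 5.70, and 5 cells held 68.3% of the 41 UMIs. After thinning to 2000 UMIs only 2 of 150 Mettl3-CKO cells remained positive. Atoh7 had too few UMIs in RPC-like cells to enter the count of members past 1.5-fold there. Path bin 1, the progenitor end, was 43.8% RPC-like cells. In Mettl3-CKO it held 5 Atoh7 UMIs, in 3 cells, over all its classes. Most of the 41 UMIs thus came from RPC-like cells at later path positions. Cluster 5 did not share the difference of RPC-like cells, with 4 UMIs (2.49 CPM) in Ctrl and 7 UMIs (2.57 CPM) in Mettl3-CKO. Later classes varied: the ratio was 1.12 (0.767 to 1.65) in cluster 7, 2.26 (1.17 to 4.52) in cluster 1 and 3.30 (1.12 to 11.7) in cluster 8, there on 5 and 14 UMIs. In rod-like cells it was 1.48 (0.982 to 2.24), and below 1 under other clusterings (0.781 at resolution 0.5). In cone-like cells it was 0.557 (0.344 to 0.899). Microglia-like cells held no Atoh7 UMI in either library. This allows a share of up to 9.09% of 33 and 10% of 30 cells at 3 counts of the total (10.6% and 11.6% by the exact interval). Müller-like cells were positive at 0.870% and 1.13%.

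**Figure D2:**
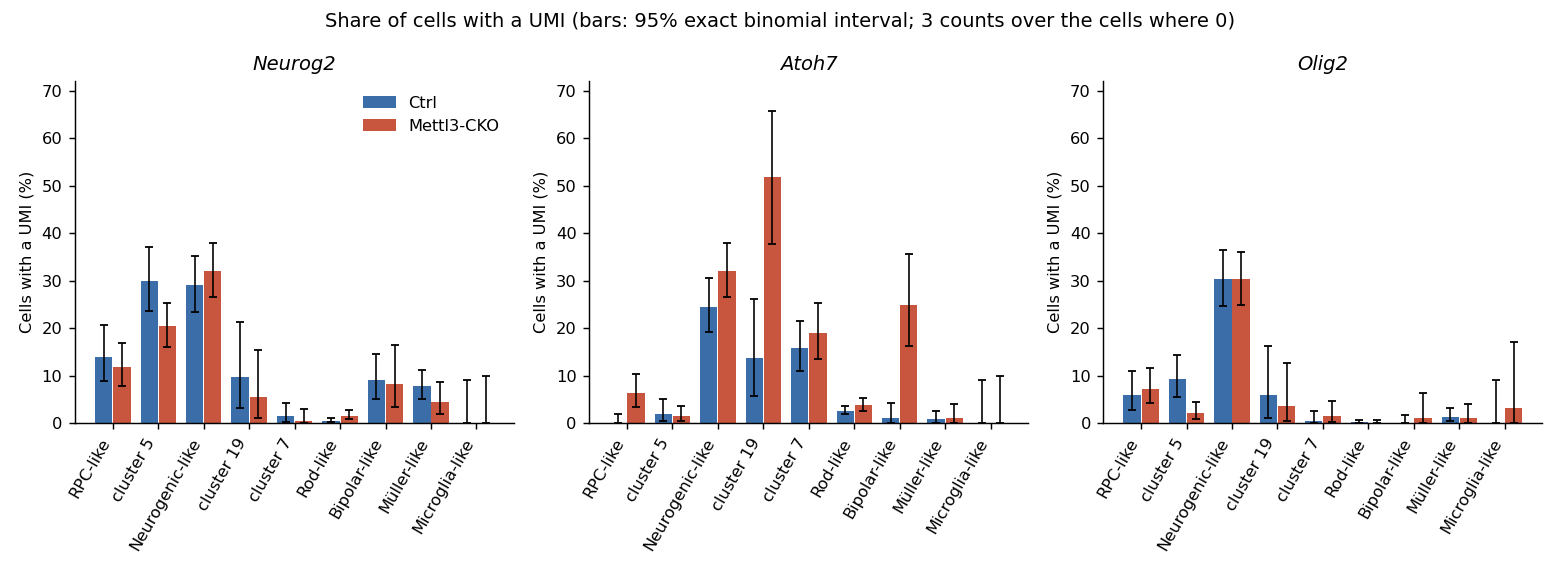
Percent of cells with at least 1 UMI of Neurog2, of Atoh7 and of Olig2 by class in Ctrl and Mettl3-CKO, with 95% exact binomial intervals. Where no cell was positive, the upper limit is 3 counts over the cells. Atoh7-positive cells make up 13.7% of Ctrl and 51.9% of Mettl3-CKO cells of cluster 19, and Olig2-positive cells 30.3% of neurogenic-like cells in both libraries.

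Neurog2 was lower in cluster 5 and higher in neurogenic-like cells of the Mettl3-CKO library, and its interval in RPC-like cells included 1. In cluster 5 it gave 206 CPM in Ctrl (184 to 229) and 129 CPM in Mettl3-CKO (116 to 144), a ratio of 0.629 (0.540 to 0.733), with positive cells at 30.1% and 20.5%. In neurogenic-like cells it gave 261 and 363 CPM, a ratio of 1.39 (1.23 to 1.56), with positive cells at 29.1% and 32.1%. The cluster 5 ratio was 0.540 with the Xist-carrying cells and 0.765 with the others, and the neurogenic-like ratio was 1.38 and 1.53. In RPC-like cells the levels were 80.8 and 92.8 CPM (ratio 1.15, 0.898 to 1.48), with a ratio of 0.502 for cells without Xist and 1.83 for cells with Xist and no Y-linked UMI. Amacrine-like cells, a class of inhibitory interneurons, held Neurog2 in 44.4% of Ctrl and 44.6% of Mettl3-CKO cells, at 129 and 117 CPM. Müller-like cells gave 33.5 and 12.6 CPM (ratio 0.376, 0.202 to 0.657), in 7.83% and 4.52% of cells. Microglia-like cells held no Neurog2 UMI in either library.

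Olig2 was lower in cluster 5 and in neurogenic-like cells. In cluster 5 it gave 33 UMIs in Ctrl (20.5 CPM) and 8 in Mettl3-CKO (2.93 CPM), a ratio of 0.143 (0.0571 to 0.316), with positive cells at 9.33% and 2.24%. The ratio was 0.142 with the Xist-carrying cells and 0.142 with the others, on 5 and 3 UMIs, and without cells of a high doublet score it was 0.0759. Since Olig2 had fewer than 100 UMIs there, it is outside the count for cluster 5, in which 1 of 5 members, Neurog2, was past 1.5-fold lower, beside 2.45% of 6567 genes lower and 5.94% higher. In neurogenic-like cells Olig2 gave 126 and 103 CPM, a ratio of 0.824 (0.679 to 0.999), with 30.3% of cells positive in both libraries. In RPC-like cells it gave 53.9 and 56.5 CPM, but 5 cells held 94.3% of these UMIs in Ctrl and 66.1% in Mettl3-CKO, and the ratio was 1.47 with and 0.419 without Xist.

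In RPC-like cells Insm1 was higher in the Mettl3-CKO library. The UMIs of Neurod1 and Neurod4 were more numerous too, but the part of background in them was not tested. Of 6 members with at least 100 UMIs, 3 were past 1.5-fold higher, beside 6.78% of 5456 genes higher and 2.07% lower. Neurod1 gave 152 CPM in Ctrl and 274 CPM in Mettl3-CKO (ratio 1.80, 1.52 to 2.13). Neurod4 gave 21.5 and 88.7 CPM (ratio 4.12, 2.75 to 6.38). Insm1 gave 152 and 262 CPM (ratio 1.72, 1.46 to 2.04). The share of RPC-like cells with Neurod1 was 25.3% and 25.1%, with Neurod4 9.33% and 18.7%, and with Insm1 28.7% and 31.5%. Without cells of a high doublet score the Neurod1 ratio was 1.46, under 1.5-fold, and with the mean of per-cell CPM it was 1.09, while that of Neurod4 was 5.04 and that of Insm1 1.68. All 3 were above 1 with the Xist-carrying cells and with the others, at 2.13 and 1.53 for Neurod1, 5.17 and 2.99 for Neurod4 and 2.0 and 1.41 for Insm1. In microglia-like cells, which do not make these factors, Neurod4 was found in 1 of 33 Ctrl and 9 of 30 Mettl3-CKO cells and Neurod1 in 15.2% and 23.3%. In Mettl3-CKO the RPC-like share with Neurod1 was thus near that of microglia-like cells and the share with Neurod4 under it, at greater depth. By level, Neurod1 at 274 CPM (251 to 298) was above the 157 CPM (111 to 214) of microglia-like cells. Neurod4 at 88.7 CPM was under their 117 CPM (78.0 to 167). Of these RPC-like cells, 18 held 10 or more Neurod1 UMIs and 5 held 10 or more of Neurod4. The part of background was not tested for either gene, so neither difference is read as a change of expression. Insm1 was in 15.2% and 10% of microglia-like cells. Hes6 was close to even in RPC-like cells, at 957 and 1033 CPM, and the 9 cell-cycle markers gave 5616 and 5998 CPM.

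In neurogenic-like cells Neurod1, Neurod4, Hes6 and Insm1 were near even. Neurod1 gave 3297 and 3008 CPM (ratio 0.912, 0.880 to 0.946), and Neurod4 gave 2042 and 2059 CPM (ratio 1.01). Hes6 gave 1202 and 1204 CPM, and Insm1 649 and 660 CPM. All 4 ratios thus lay between 0.912 and 1.02. This held for the class as named from both libraries together, and with separate clustering the ratio was 0.513 for Neurod1 and 0.494 for Neurod4. In cluster 19 Insm1 gave 510 and 740 CPM (ratio 1.45, 1.22 to 1.73). In rod-like cells Neurod4 gave 182 CPM in Ctrl (171 to 194) and 373 CPM in Mettl3-CKO (356 to 390), a ratio of 2.05 (1.90 to 2.21), with positive cells at 31.6% and 45.4%. That ratio was 2.16 with the Xist-carrying cells and 1.58 with the others, and 3.80 with separate clustering. It was the 1 of 5 members past 1.5-fold in rod-like cells, beside 2.75% of 8663 genes higher and 1.07% lower. Microglia-like cells held Neurod4 at 1 UMI in Ctrl and 29 UMIs in Mettl3-CKO, and the part of such background in the rod-like difference was not tested. In cone-like cells 3 of 4 members with enough UMIs were past 1.5-fold higher, beside 5.13% of 4425 genes higher and 2.26% lower, at ratios of 1.83 for Neurod4, 1.55 for Hes6 and 1.55 for Insm1, in cells of unequal median depth (8298 and 13003 UMIs). In Müller-like cells 3 of 4 were (5.82% of 5876 genes higher, 2.47% lower), at 2.20 for Neurod1, 1.66 for Neurod4 and 2.01 for Insm1, with Neurod1 in 21.7% and 26% of cells, near its share of microglia-like cells. By level, Neurod1 gave 193 and 424 CPM in Müller-like cells, against 143 and 157 CPM in microglia-like cells. The part of background in this Neurod1 difference was not tested. Neurod4 gave 122 and 222 CPM in cone-like and 27.9 and 46.2 CPM in Müller-like cells, against 4.95 and 117 CPM in microglia-like cells. The Müller-like level of Neurod4 in Mettl3-CKO was thus under this background and is not read as expression. The part of background in the cone-like difference was not tested. Reads of Neurod1 may be shared with the overlapping genes Cerkl, on the same strand, and Gm26755, on the other strand.

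Along the path, the 7 genes followed the same broad order in both libraries. Neurog2 was highest in bin 2 (465 CPM in Ctrl and 508 CPM in Mettl3-CKO), as were Olig2 (154 and 103 CPM) and Hes6 (1452 and 1566 CPM). Atoh7 was highest in bin 3 in both (87.2 and 264 CPM), and Neurod4 in bin 4 (2578 and 2555 CPM). Neurod1 was highest in bin 6 in Ctrl and bin 5 in Mettl3-CKO, and Insm1 in bins 10 and 9, where neighboring bins were close in level. Levels of different genes were not compared, since counts from the 3′ end depend on the gene.

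**Figure D3:**
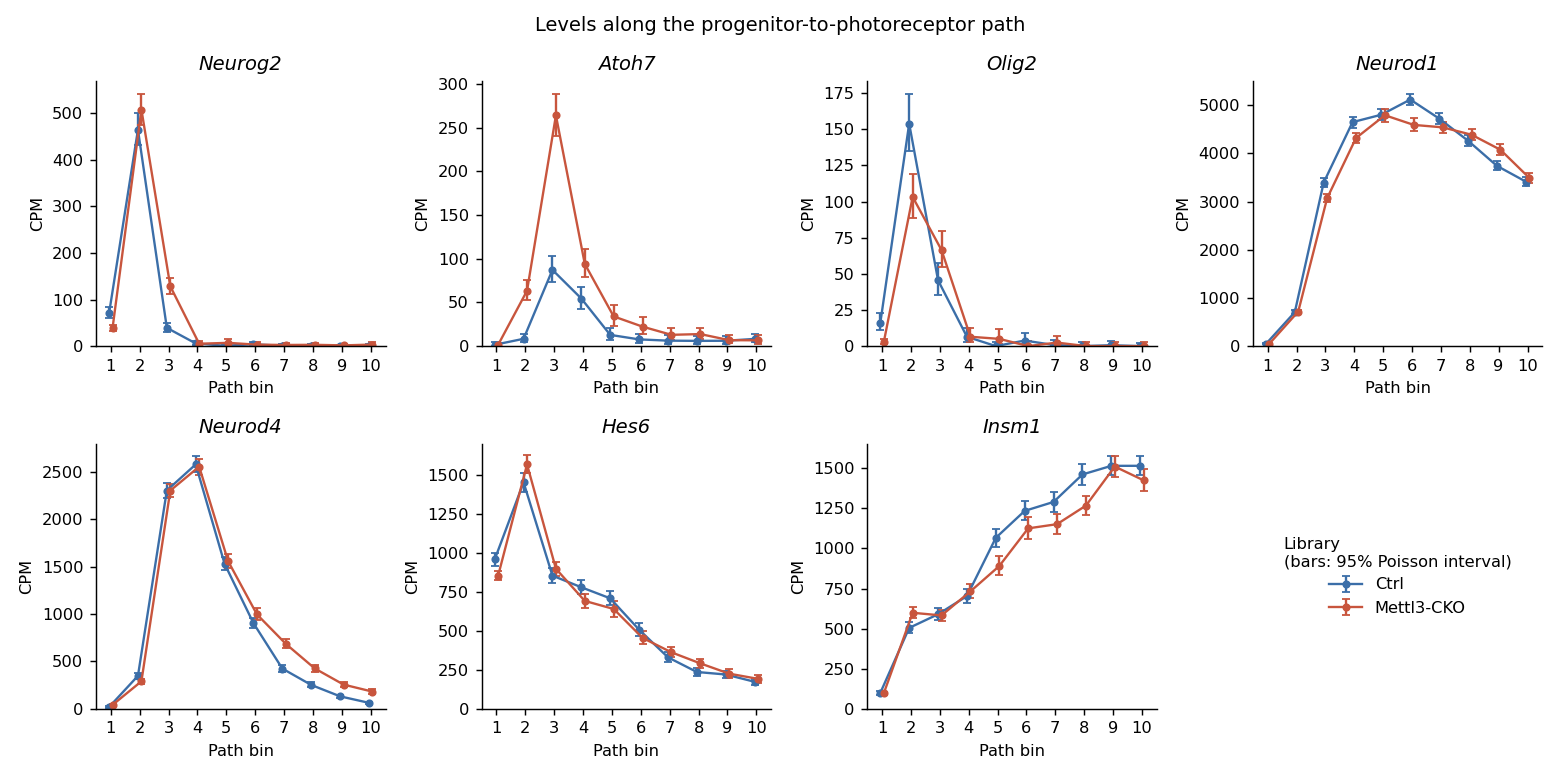
Level of each gene in CPM by path bin, from progenitor side (bin 1) to neuron side (bin 10), in Ctrl and Mettl3-CKO with 95% exact intervals for counting error. Atoh7 is highest in bin 3 in both libraries, at 87.2 and 264 CPM, and Neurog2 in bin 2, at 465 and 508 CPM.

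Within bins, where cells of like position are compared, Atoh7 was higher in Mettl3-CKO from bin 2 to bin 6. In bin 2 it gave 8.34 and 63.4 CPM, a ratio of 7.60 (4.27 to 14.7), with positive cells at 2.39% and 10.9%. In bin 3 the ratio was 3.03 (2.50 to 3.69), with positive cells at 16.7% and 30.7%. It was 1.73 (1.29 to 2.32) in bin 4, 2.65 in bin 5 and 2.90 in bin 6. In bins 7 to 10 it was 2.07, 2.30, 1.11 and 0.802, with intervals that include 1. The bin 2 ratio was 6.96 with the Xist-carrying cells and 7.05 with the others. Atoh7 thus had its widest gap on the early flank of its peak. In bin 1, mostly cluster 5 and RPC-like cells, Atoh7 was at 1.5 CPM in both libraries.

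Neurog2 differed in another way. In bin 1 it gave 70.5 and 38.6 CPM (ratio 0.548, 0.428 to 0.701), but the ratio was 0.287 (0.198 to 0.409) with the Xist-carrying cells and 0.933 (0.706 to 1.23) with the others, so the lower level lay with the Xist-carrying cells. In bin 2, its peak, it was near even (ratio 1.09, 0.990 to 1.21). In bin 3 it was higher (39.2 and 128 CPM, ratio 3.28, 2.47 to 4.41), with positive cells at 11.8% and 16%. The bin 3 ratio was 4.03 with the Xist-carrying cells and 3.44 with the others. Olig2 had ratios of 0.168 (0.0707 to 0.361) in bin 1, 0.671 (0.550 to 0.816) in bin 2 and 1.46 (1.08 to 1.98) in bin 3, so Olig2 was lower in bins 1 and 2 and higher in bin 3. In bin 1 its ratio was 0.0617 with the Xist-carrying cells and 0.331 with the others, on 2 and 7 UMIs. In bin 1, 1 of 5 members was past 1.5-fold higher (Neurod4, ratio 2.22) beside 5.65% of genes, and 1 lower (Neurog2, not so in cells without Xist) beside 1.24%, with Neurod4 in 12.7% of these Mettl3-CKO cells, under its share of microglia-like cells. In bin 2, 1 of 7 was higher (Atoh7) beside 7.3% of genes and none was lower (2.73%). In bin 3, 2 of 7 were higher (Neurog2 and Atoh7) beside 3.67% and none was lower (2.26%), and in bin 4, Atoh7 was the 1 of 5 past 1.5-fold, though at 1.39 with cells without Xist (2.18% of genes higher, 1.48% lower).

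Neurod4 was past 1.5-fold higher in bins 7 to 10, the rod side of the path, with ratios of 1.62, 1.69, 1.95 and 2.88. It was the 1 of 4 members in each of these bins, beside 2.42%, 2.31%, 1.85% and 1.85% of genes higher and 1.76%, 1.47%, 1.01% and 1% lower. In bin 10 it gave 62.8 and 181 CPM, with positive cells at 20.1% and 30.3%. Microglia-like cells gave 4.95 and 117 CPM, in 1 of 33 and 9 of 30 cells, so the bin 10 share of Mettl3-CKO was near this background and is not read as expression, and the part of background in bins 7 to 9 was not tested. The bin 10 ratio was 3.39 with the Xist-carrying cells and 2.52 with the others, whereas in bin 9 the ratio was 2.50 with and 0.635 without Xist. The higher Neurod4 level of bin 9 was thus carried by the Xist-carrying cells. In bins 7 and 8 the Neurod4 ratio was 1.55 and 1.66 with the Xist-carrying cells. It was 1.43 and 1.40 with the others, under 1.5-fold. In bins 3 to 5, around its peak, its ratio lay between 0.991 and 1.02.

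The order of the genes was also read from the median position of cells with a UMI. In Ctrl it ran from Neurog2 (16) and Olig2 (18.7) over Atoh7 (34.2), Neurod4 (47.8) and Hes6 (47.9) to Neurod1 (61.1) and Insm1 (62.2). In Mettl3-CKO it ran from Neurog2 (17.0) and Olig2 (20.6) over Atoh7 (29.0), Hes6 (37.6) and Neurod4 (43.4) to Neurod1 (54.8) and Insm1 (55.5). Neurod4 and Hes6 in Ctrl, and Neurod1 and Insm1 in both libraries, had overlapping intervals. The median was later in Mettl3-CKO for 2 of 7 genes, Neurog2 and Olig2, and earlier for 5, in a library whose cells as a whole lay earlier (42.7 against 54.6). The midpoint of each gene's level over the bins does not weigh a bin by its number of cells. It was 30.4 and 27.4 for Atoh7, 14.8 and 16.1 for Neurog2 and 16.3 and 18.8 for Olig2. For Neurod1 it was 57.5 and 58.9, later in Mettl3-CKO, so the earlier median of Neurod1 did not hold on this measure. Atoh7 was earlier in Mettl3-CKO on both measures, with median intervals that did not overlap (31.7 to 37.7 and 26.7 to 31.3). Neurog2 and Olig2 were later on both, but their median intervals overlapped between the libraries.

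**Figure D4:**
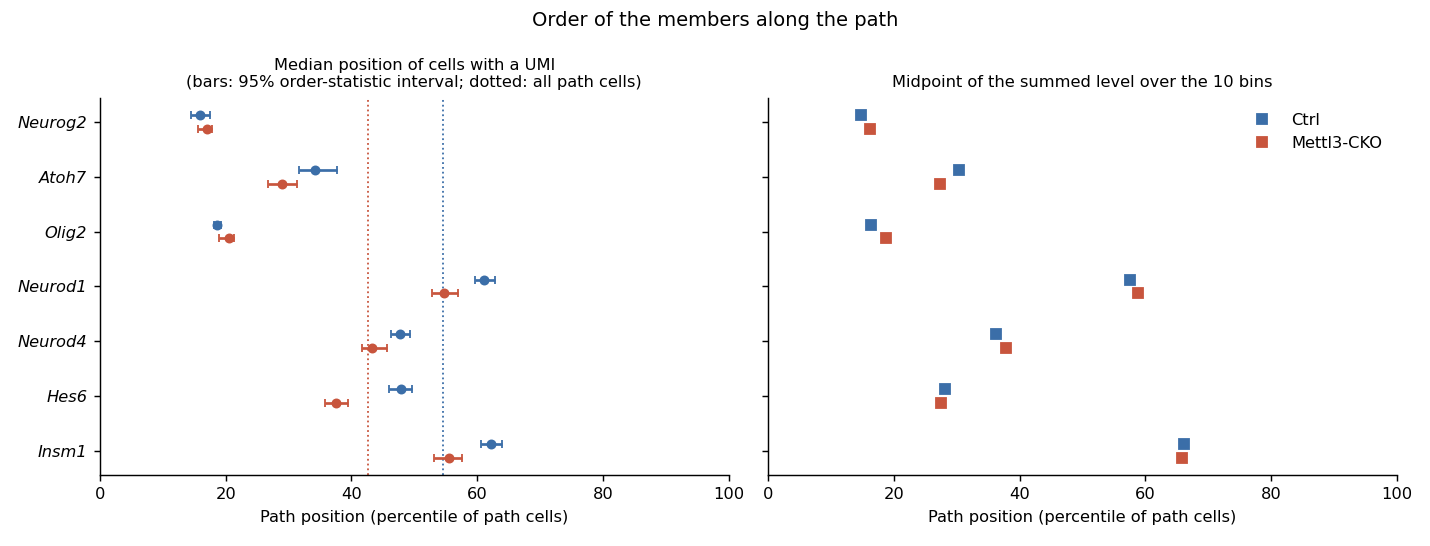
Median path position (0 to 100) of cells with a UMI of each gene in Ctrl and Mettl3-CKO, with 95% order-statistic intervals. Neurog2 lies at 16 and 17.0, Olig2 at 18.7 and 20.6, and Atoh7 at 34.2 and 29.0.

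The Atoh7-positive path cells differed between libraries in the cell-cycle markers they carried. Neurod4 was found in 81.9% of the 155 Ctrl (75.0 to 87.6) and 91.7% of the 240 Mettl3-CKO cells with Atoh7 (87.4 to 94.8). These intervals overlap slightly, and after thinning to 2000 UMIs the shares were 74.6% and 90.7%. Microglia-like cells held Neurod4 in 1 of 33 Ctrl and 9 of 30 Mettl3-CKO cells, and the part of such background here was not tested. The 9 cell-cycle markers gave 159 CPM in the Ctrl and 724 CPM in the Mettl3-CKO cells with Atoh7, and 156 and 552 CPM without cells of a high doublet score. Within neurogenic-like cells with Atoh7 the same markers gave 128 and 163 CPM, so most of that gap lay outside the neurogenic-like class. Cells with Atoh7 included 14 RPC-like cells in Mettl3-CKO and 0 in Ctrl, a class named from these markers. A gap was not particular to Atoh7: the markers gave 744 and 1317 CPM in path cells with Olig2, and 1529 and 1698 CPM in those with Neurog2. Of cells with Olig2, 8.40% in Ctrl (4.10 to 14.9) and 23.9% in Mettl3-CKO (16.4 to 32.8) also had Atoh7, but on thinning to 2000 UMIs the shares were 0% of 53 cells and 6.67% of 45 cells. Of cells with Neurog2, 41.2% and 33.2% also had Olig2, with overlapping intervals.

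**Figure D5:**
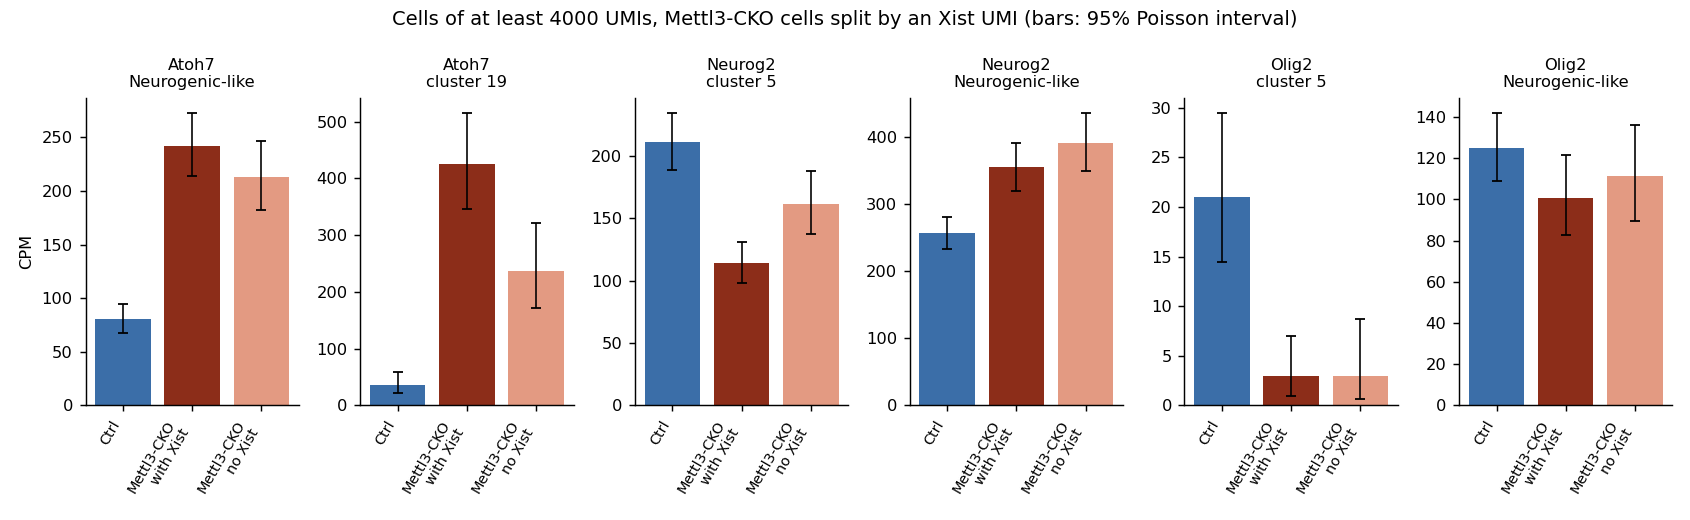
Level in CPM in Ctrl cells and in Mettl3-CKO cells with Xist and without Xist, cells of at least 4000 UMIs, with 95% exact intervals for counting error. Atoh7 is shown in neurogenic-like cells and cluster 19. Neurog2 and Olig2 are shown in cluster 5 and neurogenic-like cells. For Atoh7 in neurogenic-like cells the ratios of these levels to Ctrl are 3.02 and 2.65.

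Other genes of the pathway are given from lists drawn up by function, whether or not they differed. Of 17 other bHLH genes, 12 had at least 100 UMIs over all cells. Only 1 was past 1.5-fold, Bhlhe23, a factor of rod bipolar cells, with 192 UMIs in Ctrl and 25 in Mettl3-CKO (ratio 0.137). Over all genes 2.23% were as much lower and 4.15% as much higher. Their median log2 ratio was 0.05, against 0.02 over all genes. Of 16 Notch pathway genes, 1 was past 1.5-fold over all cells, the receptor Notch3 (ratio 1.97), beside 4.15% of all genes higher. In cluster 5 the Notch genes had a median log2 ratio of -0.28 over 11 genes. The 1 past 1.5-fold there was the ligand Dll3 at 0.532, beside 2.45% of genes lower. In neurogenic-like cells their median was -0.25 over 8 genes. The 1 past 1.5-fold there was Hes1, the main Notch effector, at 0.398, beside 1.28% of genes lower. Of the 4 Id genes, which block bHLH dimers, none was past 1.5-fold over all cells. In cluster 5, 1 of the 4 was, Id4 at 1.57, beside 5.94% of genes higher.

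Of 23 genes that accompany neurogenesis, 21 had enough UMIs over all cells, and 3 were past 1.5-fold higher, beside 4.15% of all genes: Cbfa2t3 (1.68), Sstr2 (1.59) and Tfap2d (1.58). In cluster 5, where Neurog2 and Olig2 were lower, 3 of 11 were past 1.5-fold lower (2.45% of all genes tested there) and none was higher (5.94%), and the median log2 ratio was -0.48, against 0.02 over all genes. These were the growth arrest gene Gadd45g (0.626), the photoreceptor and bipolar factor Otx2 (0.590) and the cell-cycle inhibitor Cdkn1c (0.571). In RPC-like cells 4 of 12 were higher, Btg2 (1.60), Otx2 (1.65), Prdm1 (1.60) and Tubb3 (1.75), beside 6.78% of all genes tested, and Cdkn1c was lower (0.364), beside 2.07%. Cdkn1c was also lower in neurogenic-like cells (0.578), as the only 1 of 15 past 1.5-fold, beside 1.28% of genes lower and 2.67% higher.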

How the data were processed

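Retinal cells were captured in droplets (10x Genomics 3′ chemistry), 1 library a group. Per the labels and the study's methods, reads were trimmed by the authors (fastp), aligned to GRCm38 and counted as UMIs by Cell Ranger 3.1.0, and Seurat 3.1 was used downstream. The deposited values are raw UMI counts per gene and cell. The matrices as read here gave 3994 of 5995 Ctrl and 3109 of 6992 Mettl3-CKO barcodes, with 20955138 and 19957693 UMIs after the mitochondrial UMIs (5.53% and 4.19%) were left out. The 237 Ctrl and 86 Mettl3-CKO cells below the study's filter (200 genes, 20% mitochondrial) were kept.

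Cells were log-normalized and clustered together (2000 variable genes, 10 principal components, 20 neighbors, Leiden resolution 1, scanpy 1.11.5). The 7 members, other bHLH, Notch and sex-linked genes and Mettl3 were kept out of the variable genes. A cluster was named from a marker list with at least 3 markers up 1.5-fold in 20% of its cells and a mean log2 fold of 0.5, if that mean reached 0.8 or 2 markers were among its 10 leading genes. No name was given where another list had more markers among those 10 genes. Nor was it given where median depth was under that of the library divided by 3 and no marker was among them. Cluster 5 reached the limits for Müller glia but had more markers of another list among its leading genes. These limits and the setting aside of cluster 22 (led by Ttr, Rgs5, Pmel and Pdgfra) were set after the clusters were seen. Of 24 clusters, 9 stayed unnamed. Classes rebuilt in this way need not equal those of the study. Automatic doublet calling marked 1.50% of Ctrl and 0.257% of Mettl3-CKO cells, so a fixed score of 0.25 (1.93% and 2.09%) was used for results without doublets, and doublets stayed in the main values.

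UMIs were summed per class and library and given as CPM, with exact Poisson intervals for levels, exact conditional binomial intervals for ratios and Clopper-Pearson intervals for shares, computed with scipy 1.17.1. Intervals for ratios of shares used the log method. A gene counted as past 1.5-fold only with at least 100 UMIs over both libraries in the class. The named genes were the members, the pathway lists, where a gene was named if past 1.5-fold (at most 4 a list), and for each member the 3 genes with the most similar level over clusters. Some genes are not reported here. Members and lists were chosen with earlier results of these data known. The scripts were tested on simulated data.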

Additional observations from a re-analysis of the deposited data

Results flagged for a closer look

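Xist, which no comparison of the report uses as an outcome, gave 30811 UMIs in the Mettl3-CKO library (1544 CPM, 1527 to 1561) and 32 UMIs in Ctrl (1.53 CPM, 1.04 to 2.16), with positive cells at 56.3% and 0.751%. It stood out as a signal outside the main measurement above the control level.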

How the results depend on the processing

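No paired analysis was possible because each group held 1 library, and for the same reason no library could be left out. Of the values for single genes, 432 recomputed ones stayed within the interval of the reported value and 168 did not. Another 6 turned direction, counted only for ratios past 1.5-fold and for position differences whose interval left out 0. Smaller ratios that crossed 1 stand in the other counts. For example, the Neurod1 ratio in cluster 5 (1.12) fell as low as 0.462 and the Atoh7 ratio in rod-like cells (1.48) to 0.570, while the Neurod4 ratio in cluster 5 (0.780) rose to 1.14. Of the summary values over the members, 42 recomputed values stayed within counting error or 1.5 times of the reported one and 18 did not, without a change of direction of any ratio past 1.5-fold; the cause was not tested. The median log2 ratio of the 7 members over all cells (0.08) was 0.16 with the mean of per-cell CPM, 0.037 in cells of at least 4000 UMIs, -0.061 with cells without Xist, 0.15 with cells that had Xist and no Y-linked UMI and -0.068 with cells that had a Y-linked UMI and no Xist. The number of members past 1.5-fold higher (1) was 2 with the mean of per-cell CPM and 2 with cells without Xist. The median in neurogenic-like cells (0.01) was -0.45 with separate clustering of the 2 libraries, where that class held 303 and 342 cells, of which 232 and 183 were in the class reported. At control composition the median (-0.02) was -0.045 with median-of-ratios scaling, 0.017 with Xist-carrying cells, 0.012 with cells that had Xist and no Y-linked UMI, 0.015 at resolution 0.5, -0.060 with members kept in the clustering and 0.038 with separate clustering. The ratio of the share of cells with Neurog2, Atoh7 or Olig2 (1.5) was 1.33 in cells of at least 4000 UMIs and 1.31 with Xist-carrying cells. The number of members with a later path position (2) was 4 by the midpoint of the level and 6 with bins of equal weight, alternatives chosen after seeing the data. The difference in position turned positive for Neurod1 (1.38 by the midpoint, 0.53 with bins of equal weight), Neurod4 (1.65 and 1.87), Hes6 (0.99 with bins of equal weight) and Insm1 (0.068 with bins of equal weight). The Atoh7 ratio stayed between 2.23 and 3.34 over all cells, between 1.61 and 3.09 in neurogenic-like cells and between 4.37 and 12.5 in cluster 19, and the Olig2 ratio in cluster 5 between 0.0759 and 0.158. The Neurod4 ratio in rod-like cells lay between 1.56 and 3.80.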

Other observations

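The genes whose level over the clusters was most like that of each member were Miat, Cdc25b and Tmeff2 for Neurog2 (Pearson r of 0.83, 0.82 and 0.81), Gem, Clvs1 and 3110035E14Rik for Atoh7 (0.81, 0.70 and 0.69) and Mybl1, Dll4 and Chn2 for Olig2 (0.68, 0.66 and 0.65). For Neurod1 they were Crx, Ankrd33b and Lingo3 (0.97, 0.96 and 0.95), for Neurod4 Soga3, Mfap4 and Onecut2 (0.90, 0.90 and 0.89), for Hes6 Tox, Emb and Mycl (0.89, 0.88 and 0.88) and for Insm1 Epb41, Ndrg1 and Zranb1 (0.94, 0.93 and 0.92). Among the members, Neurod1 and Insm1 were the most alike pair (0.93), followed by Neurog2 and Olig2 (0.72). These are descriptions over 48 profiles, 24 clusters in each library, that share libraries and depth.

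GGAC, the core of the motif at which m6A is most often found, occurred in the annotated transcripts at 5.84 per kb in Neurog2, 4.91 in Atoh7, 3.56 in Olig2, 4.76 in Neurod1, 1.79 in Neurod4, 5.99 in Hes6 and 3.87 in Insm1, against a median of 3.94 per kb over 21798 genes. Hes6 and Neurog2 were at the 83.3 and 81.5 percentile and Neurod4 at 9.83. A match is a description of the sequence and not a methylated site, and m6A was not measured in these libraries.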
